A study of Arabidopsis thaliana with 14 samples.

Results

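Heat shock proteins and their co-chaperones were followed in whole Arabidopsis thaliana seedlings as a set of 43 loci. The loci were chosen by gene family: the small heat shock proteins, HSP70, HSP90, HSP101/CLPB, the HOP and ROF co-chaperones, BAG6, HSA32, MBF1C and APX2, with 1 further co-chaperone-like locus, AT2G20560. Each of the 43 loci had a probe, among 25433 genes with a probe on the array, and 42 were tested, among 18307 genes tested. The remaining locus, ERD2 (also HSP70T-1, AT1G56410), was not well above background on any of the 14 arrays. Total RNA came from 4 groups of seedlings in the Col-0 background, all grown on agar for 7 days and harvested 10 h after being moved to new plates. Seedlings carrying 35S:YFP-AFL1, in which the broadly active 35S promoter drives a fusion of yellow fluorescent protein and AFL1, gave 3 arrays after transfer to agar that polyethylene glycol held at -1.2 MPa, a low water potential. Wild-type seedlings gave 4 arrays at that low water potential. On control plates 35S:YFP-AFL1 seedlings gave 3 arrays and wild-type seedlings 4 arrays. The labels name 1 transgene and no line number, so that whether 1 or several insertion lines were used is not given. Nor do they tie replicates to separate cultures, and the p-values therefore measure no more than the spread among these samples, which may be technical.

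Heat shock proteins are molecular chaperones, which keep other proteins from aggregating and help them to fold. Small heat shock proteins bind unfolding proteins without using ATP, and plants carry separate forms in the cytosol, the chloroplast, the mitochondrion, the endoplasmic reticulum and the peroxisome. HSP101 and the related CLPB proteins pull proteins out of aggregates, HSP70 and HSP90 fold clients in cycles of ATP hydrolysis, and co-chaperones such as HOP, ROF and BAG proteins guide clients between them. Many of these genes are driven by heat shock factors in heat-stressed leaves and are also active in drying seeds, whereas other family members are expressed constitutively.

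Every value given for an array is log2 of the processed signal minus the 75th percentile of that array, so that 0 is a signal at the 75th percentile. Probes differ in brightness, so that levels are compared between arrays for 1 gene and not between genes. The 75th percentile ran from 796.2 to 1591 signal units over the arrays, 59.6% to 67.1% of probes stood well above background, and saturation affected 0 spots. AFL1 itself, the gene that the transgene carries, had 2.08 to 2.51 in 35S:YFP-AFL1 and -0.55 to 0.66 in wild type on control plates, and was higher in 35S:YFP-AFL1 there (2.41, adjusted p = 0.00453). At low water potential it had 3.82 to 4.08 in 35S:YFP-AFL1 and 3.33 to 4.08 in wild type, a difference of 0.32 (adjusted p = 0.526). All 4 shoot markers and 4 of 5 root markers were well above background on all 14 arrays, the exception being EXPA7 on 10. The 35S:YFP-AFL1 arrays and WT replicate 1 of each treatment shared a slide (slide 4 for control, slide 5 for low water potential), and the other wild-type arrays were on slides 1 to 3. Scan day 1 covered slides 1 and 2, and scan day 2 covered slides 3 to 5. Slide 2, with WT stress replicate 2 and WT control replicate 4, was the only slide holding both wild-type treatments. No slide held both treatments of 35S:YFP-AFL1. With the slide as a fixed block, the wild-type stress response therefore rests on those arrays of slide 2 alone. The 35S:YFP-AFL1 response rests on them too, and on WT replicate 1 of each treatment. For the wild type, each genotype difference rests on WT replicate 1 of its treatment alone. WT control replicate 1 was the highest wild-type control array for 30 of the 42 tested genes. WT stress replicate 1 was the highest wild-type stress array for 27 of them and the lowest for 7.

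Low water potential raised most of these genes in both genotypes. In 35S:YFP-AFL1 seedlings 31 of 42 were higher and 2 lower at low water potential, and 9 did not pass the test (limma, Benjamini-Hochberg adjusted p under 0.05), against a background of 30.1% of all tested genes called higher and 33.3% called lower (63.3% in either direction). In wild-type seedlings 29 were higher, 3 lower and 10 not called, against a background of 30.7% higher and 33.4% lower (64.1% in either direction). At least 2-fold higher were 28 of 42 in 35S:YFP-AFL1, where 15.9% of all tested genes were, and 26 of 42 in wild type, where 14.4% were. The median log2 fold change of the 42 genes was 1.49 in 35S:YFP-AFL1 and 1.62 in wild type, beside medians over all tested genes of -0.036 in 35S:YFP-AFL1 and -0.032 in wild type. A gene seen only under stress enters the test through the group where it is high, so these counts describe the 42 tested genes and not every locus of the families. The comparisons in the 2 genotypes use different control arrays but share 1 estimate of the spread. In 35S:YFP-AFL1 every stressed array was above every control array in 31 of 42 genes and below in 6. Among all tested genes these shares were 37% and 39.5%. In wild type the counts were 27 and 2, against 25.9% and 27.4%. Treatments without overlap were thus common among all tested genes, and more so in the smaller 35S:YFP-AFL1 groups. For a single gene, overlap in wild type alone therefore does not show that the genotypes differ.

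**Figure D1:**
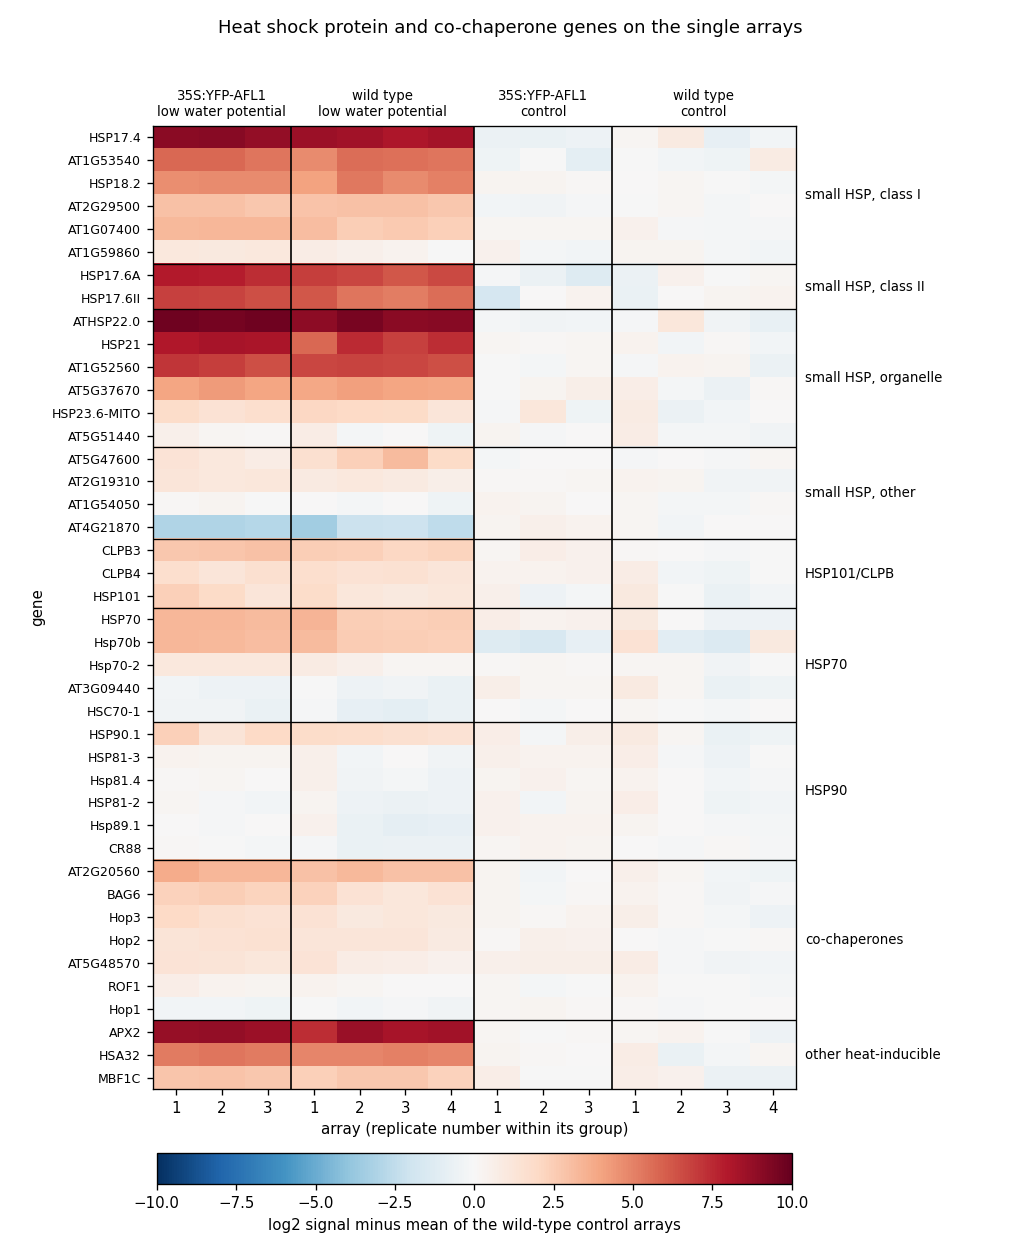
Log2 signal of the 42 tested genes (rows, grouped by class) on the 14 arrays (columns, replicate number within its group), each minus the mean of the 4 wild-type control arrays. HSP17.4, both class II genes, ATHSP22.0, HSP21 and APX2 are in the deeper reds on all 7 arrays at low water potential, AT4G21870 is blue there, and the HSP90 rows other than HSP90.1 stay pale.

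Median responses differed between classes, while genes within a class ranged widely, in wild type from 0.40 to 8.33 in class I. The 18 small heat shock protein genes had a median of 3.45 in 35S:YFP-AFL1, with 15 higher and 1 lower, and of 3.39 in wild type, with 14 higher and 1 lower. The other 24 tested genes had a median of 1.11 in 35S:YFP-AFL1, with 16 higher and 1 lower, and of 1.13 in wild type, with 15 higher and 2 lower. With the genes that were not measurable on control plates set to their lower bounds, the small heat shock protein medians were 3.11 in 35S:YFP-AFL1 and 2.85 in wild type. With bounds used in the same way, class II had the highest class median (6.73 in 35S:YFP-AFL1 and 6.08 in wild type). APX2, HSA32 and MBF1C as a group followed (5.08 and 4.92). Then came class I (3.81 and 3.80) and the organelle forms (3.71 and 3.89), whose order differed between the genotypes. HSP90 stood at the low end with medians of -0.21 in 35S:YFP-AFL1 and -0.24 in wild type. Next to it were the small heat shock proteins outside these classes (0.46 in 35S:YFP-AFL1 and 0.36 in wild type).

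**Figure D2:**
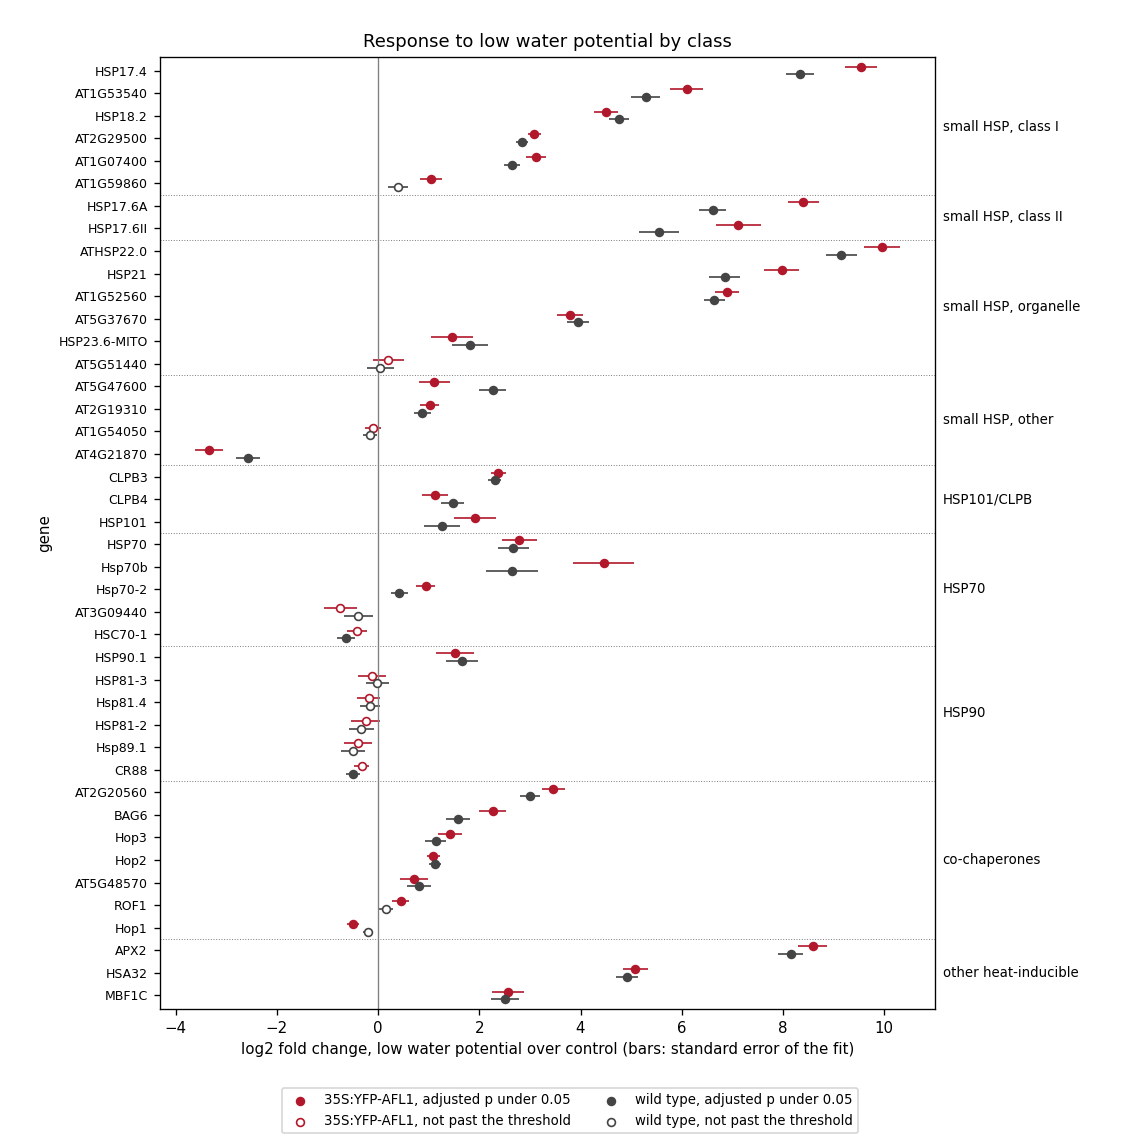
Log2 fold change at low water potential over control for the 42 genes, in 35S:YFP-AFL1 (red, upper of each pair) and wild type (grey), with the standard error of the fit and filled points where the adjusted p was under 0.05. Points lie between -3.34 (AT4G21870) and 9.95 (ATHSP22.0), and 5 of the 6 HSP90 genes lie between -0.50 and 0. For the 5 genes not measurable on control plates in either genotype (ATHSP22.0, HSP21, AT1G52560, AT5G37670 and APX2), and for HSP17.6II and HSP17.6A in 35S:YFP-AFL1, the point is a fitted value and not a bound.

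Class I small heat shock proteins, the main cytosolic form, were higher in 6 of 6 genes in 35S:YFP-AFL1 (median 3.81) and in 5 of 6 in wild type (median 3.80). HSP17.4 (AT3G46230) had array values of 5.90, 5.95 and 5.63 at low water potential, against -3.74, -3.78 and -3.63 on control plates in 35S:YFP-AFL1. In wild type it had 5.40, 5.22, 4.93 and 5.16 at low water potential, against -2.96, -2.27, -3.98 and -3.41 on control plates. All 7 stressed arrays lay far above all 7 control arrays, and 2 of 3 35S:YFP-AFL1 and 3 of 4 wild-type control arrays were above background. Its log2 fold change was 9.55 ± 0.31 (adjusted p = 5.37e-11) in 35S:YFP-AFL1 and 8.33 ± 0.27 (adjusted p = 3.71e-11) in wild type (± SE of the fit, n = 3 and 3, and 4 and 4 arrays, as for all values of this kind). Among the 16265 genes above background in both wild-type groups its wild-type fold change ranked 4 from the highest.

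At the other end of class I was AT1G59860, with -0.90, -0.92 and -0.83 at low water potential, against -1.53, -2.09 and -2.18 on control plates in 35S:YFP-AFL1. In wild type AT1G59860 had -1.17, -1.43, -1.55 and -1.96 at low water potential, against -1.68, -1.68, -2.14 and -2.19 on control plates. The 35S:YFP-AFL1 groups did not overlap, while the wild-type groups did: the lowest wild-type stress array was below 2 of the 4 control arrays. Its change was 1.05 ± 0.22 (adjusted p = 0.00112) in 35S:YFP-AFL1 and 0.40 ± 0.19 (adjusted p = 0.0897) in wild type. That wild-type value passed the test with the median of the array as the scale (0.56, adjusted p = 0.0183) and with quantile normalization (0.51, adjusted p = 0.033). It also passed with normexp on the median signals (0.43, adjusted p = 0.0192), with the replicate block (adjusted p = 0.0292) and without WT stress replicate 4 (0.54, adjusted p = 0.024). The other 4 class I genes did not overlap between treatments in either genotype. HSP18.2 (AT5G59720) changed by 4.51 in 35S:YFP-AFL1 and 4.76 in wild type, AT1G53540 by 6.10 in 35S:YFP-AFL1 and 5.29 in wild type, AT1G07400 by 3.12 in 35S:YFP-AFL1 and 2.65 in wild type, and AT2G29500 by 3.09 in 35S:YFP-AFL1 and 2.84 in wild type. AT1G53540 was above background on 1 of 3 35S:YFP-AFL1 and 3 of 4 wild-type control arrays.

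Class II small heat shock proteins, a second cytosolic form, were represented by the neighbouring genes HSP17.6II (AT5G12020) and HSP17.6A (AT5G12030), with 0 protein-coding genes between them in the TAIR10.1 gene table. HSP17.6A had 3.73, 3.65 and 3.23 at low water potential, against -4.34, -4.79 and -5.47 on control plates in 35S:YFP-AFL1. In wild type HSP17.6A had 2.73, 2.51, 2.02 and 2.43 at low water potential, against -4.80, -3.74, -4.23 and -3.98 on control plates. The stressed arrays of both genotypes lay above every control array, and 0 of 3 35S:YFP-AFL1 and 2 of 4 wild-type control arrays were above background. HSP17.6A was therefore at least 174-fold higher in 35S:YFP-AFL1 (adjusted p = 1.27e-10), and it rose by 6.61 ± 0.27 (adjusted p = 2.33e-10) in wild type. A bound of this kind compares the bright group's mean with a floor averaged over the dim arrays. The floor of an array was the dimmest signal counted as well above background there, or the signal of the probe itself where that exceeded it.

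HSP17.6II had 2.23, 2.19 and 1.90 at low water potential, against -6.26, -4.57 and -4.21 on control plates in 35S:YFP-AFL1. In wild type HSP17.6II had 1.62, 0.77, 0.50 and 0.99 at low water potential, against -5.24, -4.55, -4.31 and -4.23 on control plates. The treatments again did not overlap, and 0 of 3 35S:YFP-AFL1 and 1 of 4 wild-type control arrays were above background. HSP17.6II was at least 64.7-fold higher in 35S:YFP-AFL1 (adjusted p = 1.78e-08) and rose by 5.55 ± 0.39 (adjusted p = 4.45e-08) in wild type.

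Small heat shock proteins of organelles were higher in 5 of 6 genes in each genotype, with medians of 5.34 in 35S:YFP-AFL1 and 5.29 in wild type, or of 3.71 in 35S:YFP-AFL1 and 3.89 in wild type with unmeasured control levels at their bounds. ATHSP22.0 (AT4G10250), the form of the endoplasmic reticulum, had 3.96, 3.76 and 3.95 at low water potential, against -6.03, -6.14 and -6.04 on control plates in 35S:YFP-AFL1. In wild type ATHSP22.0 had 3.16, 3.73, 3.24 and 3.30 at low water potential, against -5.88, -4.64, -6.13 and -6.52 on control plates. It was well above background on all 7 stressed arrays and on 0 of 7 control arrays. ATHSP22.0 was at least 222-fold higher in 35S:YFP-AFL1 (adjusted p = 9e-11) and at least 202-fold higher in wild type (adjusted p = 4.02e-11), the largest of the bounds obtained.

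HSP21 (AT4G27670), the chloroplast form, had 1.76, 2.04 and 1.98 at low water potential, against -6.0, -6.14 and -6.01 on control plates in 35S:YFP-AFL1. In wild type HSP21 had -0.48, 1.23, 0.58 and 1.18 at low water potential, against -5.84, -6.46, -6.08 and -6.50 on control plates. All stressed arrays were above background and 0 of 7 control arrays were, and WT stress replicate 1 was the lowest stressed array. HSP21 was at least 57.1-fold higher in 35S:YFP-AFL1 (adjusted p = 7.02e-10) and at least 30.4-fold higher in wild type (adjusted p = 6.08e-10).

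The mitochondrial group was divided. AT1G52560 had 1.21, 1.01 and 0.55 at low water potential, against -5.99, -6.14 and -5.77 on control plates in 35S:YFP-AFL1. In wild type AT1G52560 had 0.78, 0.83, 0.76 and 0.50 at low water potential, against -6.01, -5.55, -5.65 and -6.51 on control plates. It was above background on every stressed array and on 0 of 7 control arrays, and was at least 28.5-fold higher in 35S:YFP-AFL1 (adjusted p = 8.12e-11) and at least 32.3-fold higher in wild type (adjusted p = 2.11e-11). HSP23.6-MITO (AT4G25200) rose by 1.46 in 35S:YFP-AFL1 (adjusted p = 0.00693) and 1.81 in wild type (adjusted p = 0.00055), with 1 of 3 35S:YFP-AFL1 and 2 of 4 wild-type control arrays above background.

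AT5G51440, the other mitochondrial member, had -1.88, -2.22 and -2.26 at low water potential, against -2.12, -2.49 and -2.37 on control plates in 35S:YFP-AFL1. In wild type AT5G51440 had -1.68, -2.60, -2.33 and -2.83 at low water potential, against -1.65, -2.61, -2.61 and -2.74 on control plates. The treatments overlapped in both genotypes, and replicate 1 was the highest wild-type array in each treatment. Its values were 0.20 ± 0.31 (adjusted p = 0.578) in 35S:YFP-AFL1 and 0.042 ± 0.27 in wild type (adjusted p = 0.898), and the sign of the wild-type value turned in 6 alternatives.

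AT5G37670, the peroxisomal member, had -1.43, -1.12 and -1.43 at low water potential, against -5.46, -5.10 and -4.77 on control plates in 35S:YFP-AFL1. In wild type AT5G37670 had -1.51, -1.32, -1.41 and -1.53 at low water potential, against -4.75, -5.55, -5.96 and -5.29 on control plates. It was above background on all stressed and 0 of 7 control arrays. The differences came to at least 6.0-fold higher in 35S:YFP-AFL1 (adjusted p = 3.07e-08) and at least 7.23-fold higher in wild type (adjusted p = 4.68e-09).

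The 4 remaining small heat shock protein genes, placed in the nucleus and cytosol outside classes I and II, did not move together: 2 rose, 1 fell and 1 did not pass the test in each genotype. AT4G21870 had -1.80, -1.80 and -1.69 at low water potential, against 1.45, 1.72 and 1.56 on control plates in 35S:YFP-AFL1. In wild type AT4G21870 had -2.27, -0.97, -0.91 and -1.37 at low water potential, against 1.37, 0.90, 1.27 and 1.23 on control plates. Every stressed array was below every control array in both genotypes, and WT stress replicate 1 was the lowest stressed array. AT4G21870 fell, with a change of -3.34 ± 0.28 (adjusted p = 2.53e-07) in 35S:YFP-AFL1 and of -2.57 ± 0.24 (adjusted p = 7.27e-07) in wild type, and it was the only one of the 42 genes at least 2-fold lower in either genotype.

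AT5G47600 had -2.39, -2.71 and -3.0 at low water potential, against -3.97, -3.75 and -3.71 on control plates in 35S:YFP-AFL1. In wild type AT5G47600 had -2.15, -1.43, -0.60 and -1.88 at low water potential, against -3.88, -3.76, -3.90 and -3.59 on control plates. Stressed arrays lay above control arrays in both genotypes, and 1 of 3 35S:YFP-AFL1 and 2 of 4 wild-type control arrays were above background. It rose by 1.11 ± 0.31 (adjusted p = 0.00638) in 35S:YFP-AFL1 and by 2.27 ± 0.26 (adjusted p = 5.95e-06) in wild type, and with the slide as a block the 35S:YFP-AFL1 value was 1.54 (adjusted p = 0.156). AT2G19310 rose by 1.02 in 35S:YFP-AFL1 and 0.88 in wild type. AT1G54050 had -0.093 in 35S:YFP-AFL1 (adjusted p = 0.632) and -0.15 in wild type (adjusted p = 0.357).

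Set out by compartment, the 8 cytosolic class I and II genes had medians of 5.30 in 35S:YFP-AFL1 and 5.02 in wild type. The 3 mitochondrial small forms had 1.46 in 35S:YFP-AFL1 and 1.81 in wild type, and the single endoplasmic reticulum, chloroplast and peroxisome forms lay above their bounds given earlier. Over all classes, the 3 chloroplast genes, HSP21, CLPB3 and the HSP90 gene CR88, had medians of 2.38 with 2 higher and 0 lower in 35S:YFP-AFL1, and 2.30 with 2 higher and 1 lower in wild type. The 5 mitochondrial genes had 1.13 in 35S:YFP-AFL1 and 1.47 in wild type, each with 3 higher and 0 lower. The 25 tested cytosolic genes had 1.52 with 19 higher and 1 lower in 35S:YFP-AFL1, and 1.27 with 17 higher and 1 lower in wild type. Each of these 3 compartments held genes that rose and genes that did not pass the test or fell, in both genotypes.

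The disaggregases rose in 3 of 3 genes in each genotype, with medians of 1.91 in 35S:YFP-AFL1 and 1.47 in wild type. CLPB3 (AT5G15450), of the chloroplast, had 2.46, 2.55 and 2.64 at low water potential, against -0.04, 0.40 and 0.16 on control plates in 35S:YFP-AFL1. In wild type CLPB3 had 2.21, 2.17, 1.82 and 2.0 at low water potential, against -0.10, -0.22, -0.37 and -0.33 on control plates. Replicates were tight and treatments far apart, with changes of 2.38 ± 0.14 (adjusted p = 1.13e-08) in 35S:YFP-AFL1 and 2.30 ± 0.12 (adjusted p = 3.5e-09) in wild type. CLPB4 (AT2G25140), of the mitochondrion, rose by 1.13 in 35S:YFP-AFL1 and 1.47 in wild type.

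HSP101 (AT1G74310), the cytosolic disaggregase needed for acquired heat tolerance, had 1.36, 0.88 and 0.20 at low water potential, against -0.52, -1.55 and -1.22 on control plates in 35S:YFP-AFL1. In wild type HSP101 had 0.84, 0.12, -0.01 and 0.09 at low water potential, against -0.03, -1.06, -1.67 and -1.29 on control plates. Stressed arrays were above control arrays in both genotypes, and replicate 1 was the highest wild-type array in each treatment. HSP101 rose by 1.91 ± 0.41 (adjusted p = 0.00123) in 35S:YFP-AFL1 and by 1.27 ± 0.36 (adjusted p = 0.00705) in wild type. The call was lost in both genotypes with the slide as a block (2.45 in 35S:YFP-AFL1, adjusted p = 0.0605, and 1.41 in wild type, adjusted p = 0.0762). That wild-type value compares WT stress replicate 2 with WT control replicate 4 alone. The wild-type call was also lost with scan day as a block (0.90, adjusted p = 0.0536). Within scan day 2, with a single wild-type control array, the wild-type value was 0.34.

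HSP70 genes did not move together, with 3 higher and 0 lower of 5 tested in 35S:YFP-AFL1 (median 0.94) and 3 higher and 1 lower in wild type (median 0.42). The gene named HSP70 (AT3G12580), a cytosolic heat-inducible form, had 6.04, 6.04 and 5.88 at low water potential, against 3.35, 3.08 and 3.15 on control plates in 35S:YFP-AFL1. In wild type it had 6.13, 5.19, 5.10 and 5.15 at low water potential, against 3.67, 2.77, 2.24 and 2.20 on control plates. The treatments were well separated, and WT replicate 1 was the highest wild-type array in each. This gene rose by 2.79 ± 0.35 (adjusted p = 1.13e-05) in 35S:YFP-AFL1 and by 2.67 ± 0.30 (adjusted p = 4.22e-06) in wild type.

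HSC70-1 (AT5G02500), a constitutive cytosolic HSP70, was lower under stress on average, with 5.58, 5.57 and 5.31 at low water potential, against 6.01, 5.76 and 5.96 on control plates in 35S:YFP-AFL1. In wild type HSC70-1 had 5.86, 5.10, 5.0 and 5.29 at low water potential, against 6.13, 5.89, 5.75 and 6.03 on control plates. The 35S:YFP-AFL1 groups did not overlap, and the wild-type groups overlapped through WT stress replicate 1. Its change was -0.42 ± 0.20 (adjusted p = 0.0793) in 35S:YFP-AFL1 and -0.64 ± 0.17 (adjusted p = 0.00535) in wild type, so that it fell in wild type. Of its 8 probes 5 were called lower and 0 higher in wild type (range -1.04 to 0.26), and 1 lower and 0 higher in 35S:YFP-AFL1. The scale mattered here: with quantile normalization the values were 0.013 (adjusted p = 0.958) in 35S:YFP-AFL1 and -0.20 (adjusted p = 0.3) in wild type. In 35S:YFP-AFL1 it was called lower with the slide as a block (-1.09, adjusted p = 0.0354), with only the groups compared (adjusted p = 0.017), with the replicate block (adjusted p = 0.0497) and without WT stress replicate 1 (adjusted p = 0.0146).

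Hsp70-2 (AT5G02490), the adjacent gene with 0 protein-coding genes between it and HSC70-1, rose by 0.94 ± 0.19 (adjusted p = 0.000658) in 35S:YFP-AFL1 and by 0.42 ± 0.16 (adjusted p = 0.0351) in wild type, calls that were lost with the slide as a block. The wild-type call was also lost with no filter, with only the groups compared and with scan day as a block. It was lost too without WT control replicate 3 or 4 or WT stress replicate 1 or 2. The wild-type value was 0.57 within scan day 1 and 0.18 within scan day 2, each with 1 wild-type array in a group. Hsp70b (AT1G16030), also heat-inducible, rose by 4.45 ± 0.60 in 35S:YFP-AFL1 and 2.64 ± 0.52 in wild type, with the largest standard errors of the list. Its control arrays, of which 1 of 3 35S:YFP-AFL1 and 3 of 4 wild-type ones were above background, were at -4.17, -4.46 and -3.73 in 35S:YFP-AFL1 and -1.44, -3.98, -4.23 and -1.88 in wild type. AT3G09440 had -0.75 in 35S:YFP-AFL1 (adjusted p = 0.0629) and -0.39 in wild type (adjusted p = 0.244), with 0 of its 3 probes called. Its 35S:YFP-AFL1 groups did not overlap. In 35S:YFP-AFL1 it was called lower with normexp on the median signals, with only the groups compared and with scan day as a block. The same held with the replicate block and without WT control replicate 1 or 3. In wild type it was called lower with scan day as a block, and its value within scan day 2 was -1.29.

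HSP90 genes moved least, with 1 of 6 higher and 0 lower in 35S:YFP-AFL1 and 1 higher and 1 lower in wild type. The gene that rose was HSP90.1 (AT5G52640), the heat-inducible cytosolic form, with 2.64, 1.57 and 2.23 at low water potential, against 0.92, 0.10 and 0.86 on control plates in 35S:YFP-AFL1. In wild type HSP90.1 had 2.13, 2.02, 1.91 and 1.69 at low water potential, against 1.2, 0.45, -0.36 and -0.17 on control plates. Stressed arrays lay above control arrays in both genotypes, and WT replicate 1 was the highest in each wild-type group. Its change was 1.52 ± 0.38 (adjusted p = 0.00315) in 35S:YFP-AFL1 and 1.66 ± 0.33 (adjusted p = 0.000572) in wild type, where within scan day 2 it was 0.71 (adjusted p = 0.221). A second HSP90.1 probe was called higher in 35S:YFP-AFL1 (1.71) and had 0.90 in wild type without a call.

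The constitutive cytosolic HSP90 genes HSP81-2 (AT5G56030), HSP81-3 (AT5G56010) and Hsp81.4 (AT5G56000) were not called in either genotype. Their values ran from -0.25 to -0.12 in 35S:YFP-AFL1 and from -0.33 to -0.01 in wild type. These 3 genes lie together on chromosome 5, with at most 1 protein-coding gene between neighbours, and encode near-identical proteins; whether their probes cross-hybridise was not tested.

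CR88 (AT2G04030), the chloroplast HSP90, had 2.81, 2.65 and 2.49 at low water potential, against 2.91, 3.03 and 2.97 on control plates in 35S:YFP-AFL1. In wild type CR88 had 2.56, 1.99, 2.11 and 2.08 at low water potential, against 2.75, 2.57, 2.83 and 2.58 on control plates. Stressed arrays were below control arrays in both genotypes by a small margin. The change was -0.33 ± 0.15 (adjusted p = 0.0791) in 35S:YFP-AFL1 and -0.50 ± 0.13 (adjusted p = 0.005) in wild type, with 2 of its 5 probes called lower in 35S:YFP-AFL1 and 5 in wild type, and the wild-type value within scan day 2 was -0.50 (adjusted p = 0.105). Hsp89.1 (AT3G07770), the mitochondrial HSP90, had -0.40 in 35S:YFP-AFL1 (adjusted p = 0.225) and -0.50 in wild type (adjusted p = 0.0858). It was called lower in 35S:YFP-AFL1 with the slide as a block (-1.04, adjusted p = 0.0152), with only the groups compared and without WT stress replicate 1, where the wild-type value passed the test too.

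**Figure D3:**
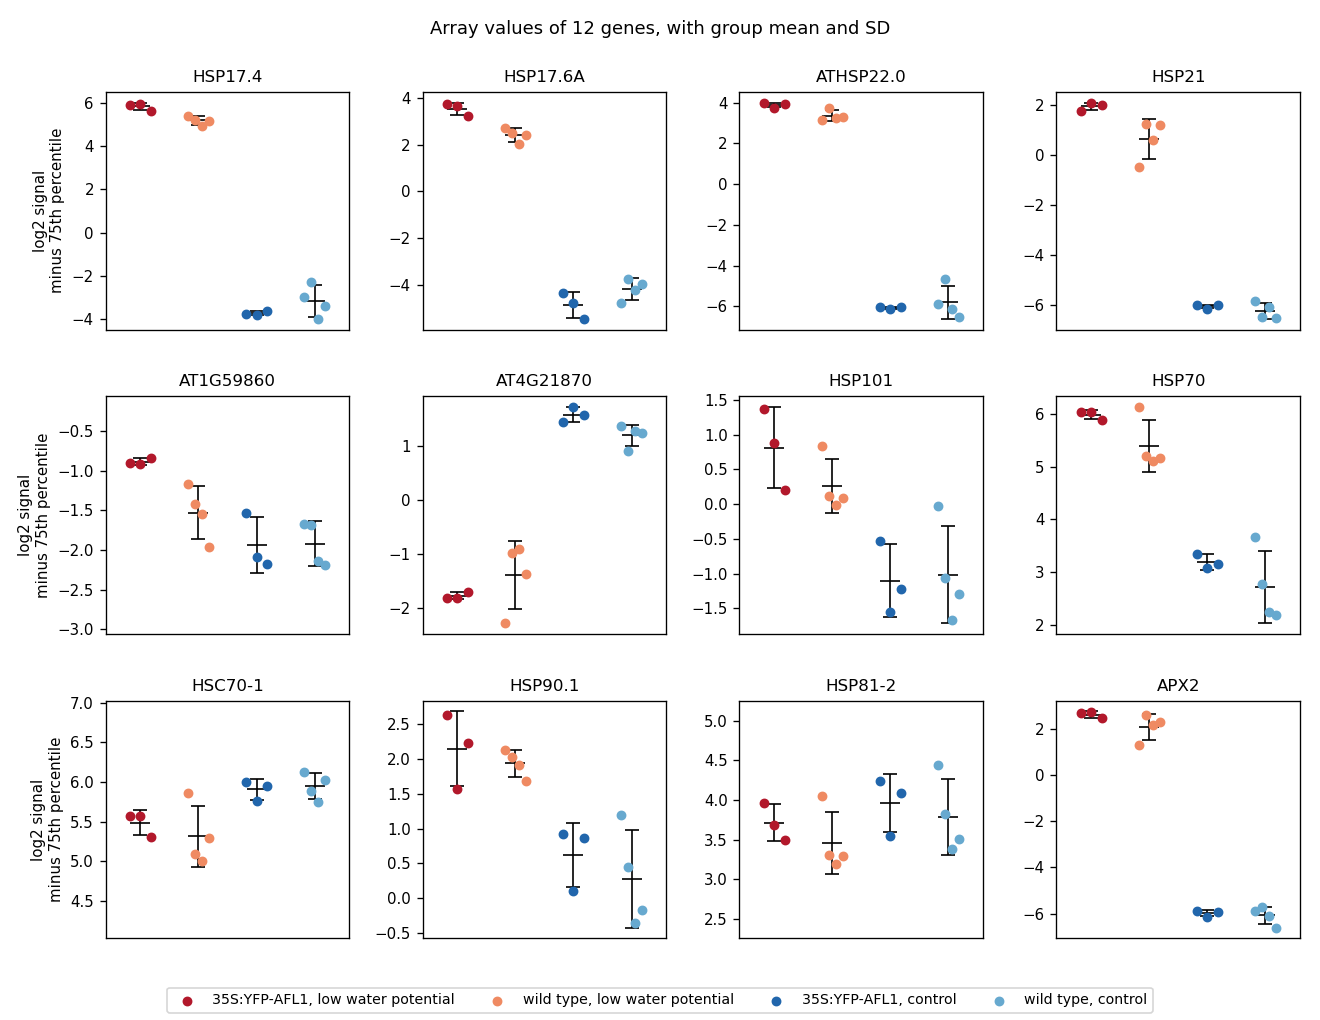
Log2 signal minus the 75th percentile of the array for 12 genes, 1 point per array (3 for each 35S:YFP-AFL1 group and 4 for each wild-type group), with the group mean and SD in black. HSP17.4, HSP17.6A, ATHSP22.0, HSP21 and APX2 show low water potential far above control in both genotypes, AT4G21870 shows the reverse, and the HSP81-2 groups overlap.

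Co-chaperones rose in 6 of 7 genes and fell in 1 in 35S:YFP-AFL1 (median 1.09), and rose in 5 of 7 with 0 lower in wild type (median 1.12). AT2G20560 had 3.15, 2.75 and 2.76 at low water potential, against -0.35, -0.86 and -0.53 on control plates in 35S:YFP-AFL1. In wild type AT2G20560 had 2.34, 2.65, 2.30 and 2.30 at low water potential, against -0.08, -0.42, -0.88 and -1.0 on control plates. Treatments were far apart in both genotypes, with changes of 3.47 ± 0.23 (adjusted p = 2.85e-08) in 35S:YFP-AFL1 and 2.99 ± 0.20 (adjusted p = 2.61e-08) in wild type. BAG6 (AT2G46240), a calmodulin-binding member of the BAG family that regulates HSP70, rose by 2.27 ± 0.27 in 35S:YFP-AFL1 and 1.58 ± 0.23 in wild type, with 3 of 3 probes called higher in each genotype.

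The 3 HOP genes, whose products bridge HSP70 and HSP90, did not behave alike. Hop1 (AT1G12270) had -0.96, -0.97 and -1.13 at low water potential, against -0.52, -0.44 and -0.62 on control plates in 35S:YFP-AFL1. In wild type Hop1 had -0.74, -0.97, -0.86 and -1.07 at low water potential, against -0.60, -0.84, -0.77 and -0.65 on control plates. The 35S:YFP-AFL1 groups did not overlap and the wild-type groups did. Hop1 fell in 35S:YFP-AFL1, with -0.49 ± 0.12 (adjusted p = 0.00282), and had -0.19 ± 0.10 (adjusted p = 0.115) in wild type. With the slide as a block the 35S:YFP-AFL1 call was lost (-0.67, adjusted p = 0.0915). Hop3 (AT4G12400) rose by 1.42 in 35S:YFP-AFL1 and 1.14 in wild type, and Hop2 (AT1G62740) by 1.09 in 35S:YFP-AFL1 and 1.12 in wild type, although the second Hop2 probe in wild type had 0.48 without a call. Of the ROF genes, peptidyl-prolyl isomerases that bind HSP90, ROF1 (AT3G25230) rose in 35S:YFP-AFL1 (0.45, adjusted p = 0.0313) and had 0.16 in wild type (adjusted p = 0.358). AT5G48570 (ROF2, FKBP65) rose by 0.71 in 35S:YFP-AFL1 (adjusted p = 0.0367) and 0.81 in wild type (adjusted p = 0.00857). The ROF1 call was lost with quantile normalization, with the slide as a fixed or random block, and without 35S:YFP-AFL1 control replicate 2 or 3 or stress replicate 1. The 35S:YFP-AFL1 call of AT5G48570 was lost with quantile normalization, normexp on the median signals, no filter, the slide as a random block and each of the 6 35S:YFP-AFL1 arrays left out, and its wild-type call with scan day as a block and within scan day 2.

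The other heat-inducible genes rose in 3 of 3 cases in each genotype, with medians of 5.08 in 35S:YFP-AFL1 and 4.92 in wild type. APX2 (AT3G09640), a cytosolic ascorbate peroxidase and a known target of heat shock factors, had 2.67, 2.70 and 2.46 at low water potential, against -5.87, -6.14 and -5.94 on control plates in 35S:YFP-AFL1. In wild type APX2 had 1.27, 2.57, 2.14 and 2.29 at low water potential, against -5.90, -5.73, -6.09 and -6.61 on control plates. WT stress replicate 1 was the lowest stressed array. APX2 was above background on all stressed and 0 of 7 control arrays, and it was at least 91.6-fold higher in 35S:YFP-AFL1 (adjusted p = 6.22e-11) and at least 82.4-fold higher in wild type (adjusted p = 1.97e-11). HSA32 (AT4G21320), which prolongs acquired heat tolerance together with HSP101, rose by 5.08 ± 0.25 in 35S:YFP-AFL1 and 4.92 ± 0.22 in wild type, with 2 of 2 probes called. MBF1C (AT3G24500), a transcriptional coactivator of the heat response, had 4.26, 4.33 and 4.15 at low water potential, against 2.12, 1.46 and 1.44 on control plates in 35S:YFP-AFL1. In wild type MBF1C had 3.87, 4.13, 4.17 and 3.76 at low water potential, against 2.17, 1.92, 0.91 and 0.89 on control plates. The treatments did not overlap, and MBF1C rose by 2.57 ± 0.31 (adjusted p = 9.72e-06) in 35S:YFP-AFL1 and 2.51 ± 0.27 (adjusted p = 2.99e-06) in wild type.

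Among 21 heat shock factor genes, the transcription factors that bind heat shock elements, 18 were tested, and 9 rose and 5 fell in each genotype, beside the 63.3% of all tested genes called in 35S:YFP-AFL1 and 64.1% in wild type. Those with the largest absolute change in wild type were HSFA6B at 6.26 in 35S:YFP-AFL1 and 5.0 in wild type, HSFA6A at 4.57 in 35S:YFP-AFL1 and 4.86 in wild type, HSFA3 at -5.53 in 35S:YFP-AFL1 and -4.13 in wild type, and HSFA1E at 3.39 in 35S:YFP-AFL1 and 3.09 in wild type. Of 32 further chaperone genes 30 were tested, with 11 higher and 5 lower in 35S:YFP-AFL1 and 10 higher and 9 lower in wild type, so that 16 of 30 in 35S:YFP-AFL1 and 19 of 30 in wild type were called, no more than among all tested genes, and with medians of 0.14 in 35S:YFP-AFL1 and 0.15 in wild type. The largest wild-type changes there, each given for 35S:YFP-AFL1 and then wild type, were in the chloroplast chaperonin subunits CPN60A (-1.94 and -2.77) and CPN60B (-2.39 and -2.22), the HSP70 gene HSP70T-2 (2.36 and 2.35) and SGT1A (-1.64 and -1.58), a co-chaperone of HSP90. The signals of the 4 shoot markers, each divided by the array's 75th percentile, summed to 222.8 to 274.1 in stressed and 577.2 to 646.6 in control 35S:YFP-AFL1 seedlings, and to 247.7 to 366.4 in stressed and 604.7 to 698.4 in control wild type. All 4 were called lower in each genotype. The root markers did not move together. AT5G44020 (-6.44 in 35S:YFP-AFL1 and -5.15 in wild type) and AT3G54580 (-0.71 and -0.80) were called lower in each genotype. CASP1 was called lower in 35S:YFP-AFL1 (-1.15) and not in wild type (-0.55). BGLU21 and EXPA7 were called in neither genotype. In bulk RNA, fewer cells of a type and less RNA per cell cannot be told apart, and the part of these shifts in the responses above was not tested.

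Fewer wild-type calls were made within scan day 2. Within that day, which held WT replicate 1 of each treatment with WT stress replicates 3 and 4, and so a single wild-type control array whose spread is taken from the other groups, 24 of the 42 genes were called against 42% of all tested genes, and the median was 0.995. Within scan day 1 there were 31, against 50.1% of all tested genes, and with scan day as a block on all arrays 30, against 59.6%. Scan day 1 in turn held a single wild-type stress array, WT stress replicate 2, with WT control replicates 2, 3 and 4. The cause of the lower count within scan day 2 was not tested. The 9 calls lost within scan day 2 were those of AT2G19310, AT5G48570, CR88, Hop3, HSC70-1, HSP101, HSP23.6-MITO, Hsp70-2 and HSP90.1. Of the 15 small heat shock protein calls in wild type, AT2G19310 and HSP23.6-MITO were the ones lost. The 35S:YFP-AFL1 treatments, on slides 4 and 5, are linked in a slide block only through single wild-type arrays. These are WT replicate 1 of each treatment and the wild-type arrays of slide 2. Under a slide block 27 of the 42 genes passed the test in 35S:YFP-AFL1, against 35.9% of all tested genes. The 8 calls lost were those of AT1G59860 (adjusted p = 0.0858), AT5G47600, Hop1 (0.0915), Hop2 (0.0586), HSP101, HSP23.6-MITO (0.111), Hsp70-2 and ROF1 (0.134), and the 2 gained were those of HSC70-1 and Hsp89.1.

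The question whether 35S:YFP-AFL1 alters these genes without stress was addressed on control plates, where limma called 0 of the 42 genes different between 35S:YFP-AFL1 and wild type, against a background of 0.0218% of all tested genes. An unadjusted p under 0.05 was reached by 5 of 42, where 11.3% of all tested genes reached it. The lowest p-values belonged to CLPB3, Hop2 and HSP17.6A. CLPB3 had -0.04, 0.40 and 0.16 in 35S:YFP-AFL1, against -0.10, -0.22, -0.37 and -0.33 in wild type. Every 35S:YFP-AFL1 array was above every wild-type array, as in 4 of 42 genes against 6.89% of all tested genes (0 of 42 had every array below, against 6.74%), with a difference of 0.43 (95% interval 0.14 to 0.72, adjusted p = 0.237). Hop2 had -0.61, -0.20 and -0.31 in 35S:YFP-AFL1, against -0.69, -0.79, -0.73 and -0.59 in wild type. The groups overlapped at the 35S:YFP-AFL1 replicate 1 array, and the difference was 0.33 (95% interval 0.067 to 0.59, adjusted p = 0.316). HSP17.6A was above background on 0 of 3 35S:YFP-AFL1 and 2 of 4 wild-type control arrays, so that its fitted difference of -0.68 (adjusted p = 0.391) rests on levels that were not measured.

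The direction of the small control differences turned with the slide. In the fit of 4 group means 29 of 42 were positive (median 0.17), without WT control replicate 1 there were 33 (median 0.30), and with the slide as a block, or within scan day 2, there were 10 (median -0.23). With the slide as a block Hsp70b alone was called, lower in 35S:YFP-AFL1 (log2 difference -2.68, adjusted p = 0.00642). The slide block rests on the single wild-type array that shared slide 4, so that replicate and slide cannot be told apart there.

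At low water potential limma called 0 of the 42 genes different between the genotypes, against a background of 2.17% of all tested genes, and 14 had an unadjusted p under 0.05, where 20.2% of all tested genes did. The median difference was 0.30 beside 0.0041 over all tested genes, and 36 of 42 were positive. In 13 genes every 35S:YFP-AFL1 array was above every wild-type array, as in 6.41% of all tested genes, and in 1 every array was below, as in 8.13%. These 13 were 8 small heat shock protein genes (HSP17.4, AT1G07400, AT1G59860, HSP17.6A, HSP17.6II, ATHSP22.0, HSP21 and AT2G19310) and CLPB3, Hsp70-2, Hop2, AT2G20560 and HSA32.

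The lowest p-values at low water potential belonged to AT5G47600, HSP21 and HSP17.6A. AT5G47600 had -2.39, -2.71 and -3.0 in 35S:YFP-AFL1, against -2.15, -1.43, -0.60 and -1.88 in wild type. It was the gene with every 35S:YFP-AFL1 array below every wild-type array, with a difference of -1.19 (95% interval -1.80 to -0.57, adjusted p = 0.0509). HSP21 had 1.76, 2.04 and 1.98 in 35S:YFP-AFL1, against -0.48, 1.23, 0.58 and 1.18 in wild type. All 3 35S:YFP-AFL1 arrays were higher, the widest gap being to WT stress replicate 1, and the difference was 1.30 (95% interval 0.58 to 2.01, adjusted p = 0.0625). HSP17.6A had 3.73, 3.65 and 3.23 in 35S:YFP-AFL1, against 2.73, 2.51, 2.02 and 2.43 in wild type. Again all 3 arrays were higher, by 1.11 on average (95% interval 0.49 to 1.73, adjusted p = 0.0648).

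**Figure D4:**
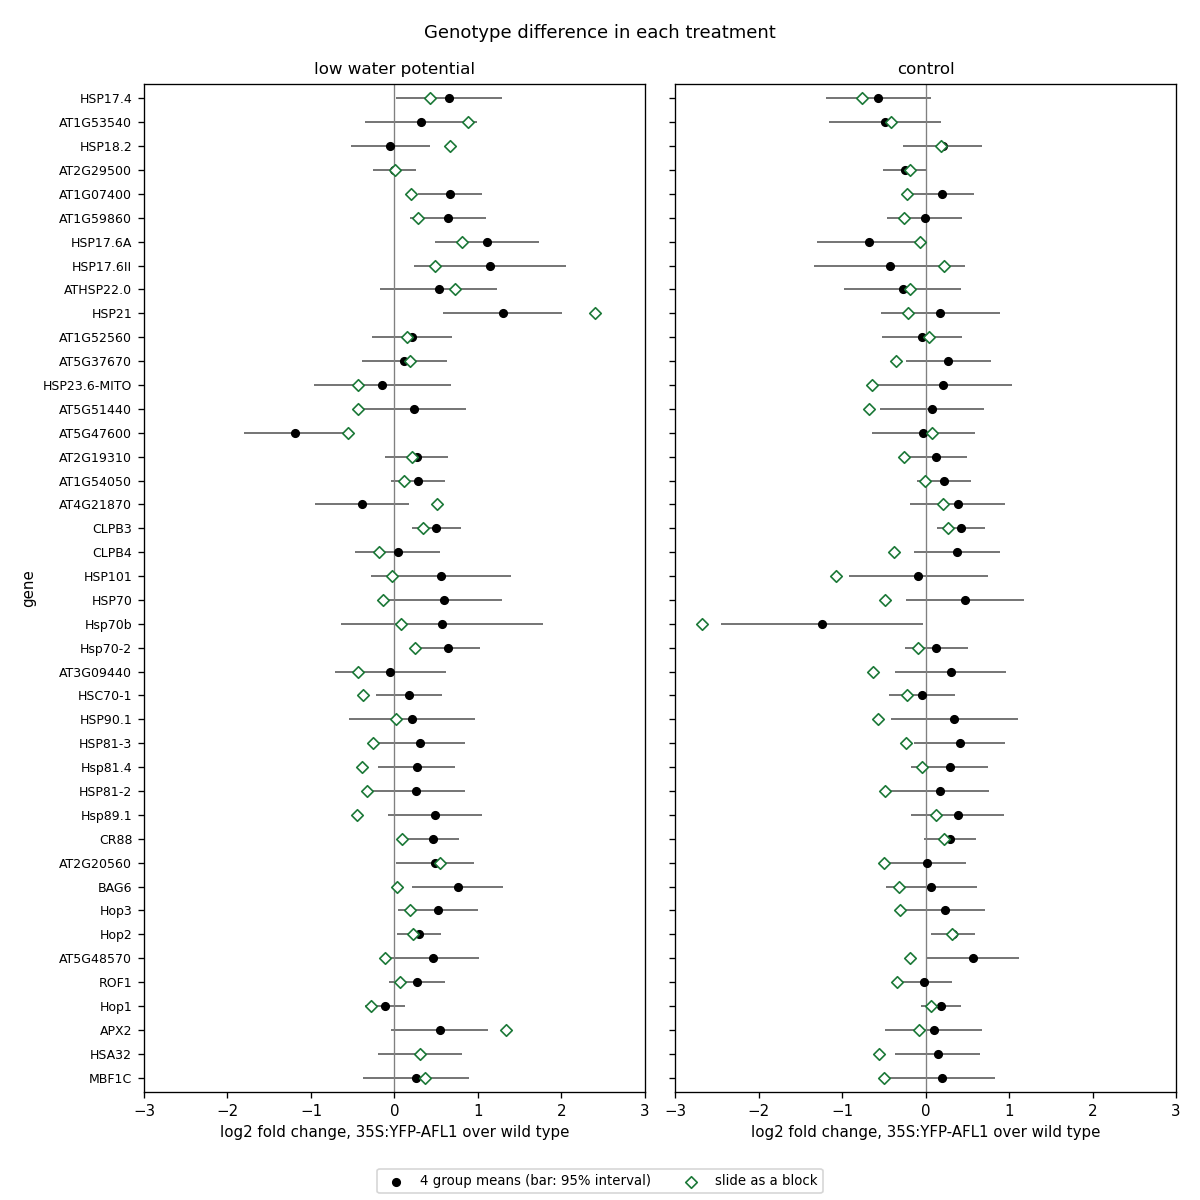
Log2 fold change of 35S:YFP-AFL1 over wild type for the 42 genes at low water potential (left) and on control plates (right), with the 95% interval of the fit of 4 group means (black) and the value with the slide as a block (green diamonds). Most black points at low water potential lie between 0 and 0.7, AT5G47600 lies at -1.19 and HSP21 at 1.30, and on control plates the diamonds lie mostly left of the black points.

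The count at low water potential depended on 1 array. Without WT stress replicate 1, 13 of 42 were called, 11 higher and 2 lower, against 19.2% of all tested genes. The 11 were AT1G07400, AT1G59860, HSP17.6A, HSP17.6II and HSP21 among the small heat shock proteins, and CLPB3, Hsp70-2, Hsp81.4, CR88, Hsp89.1 and BAG6, with differences from 0.48 for Hsp81.4 to 1.36 for HSP17.6II. The 2 lower genes were AT5G47600 at -1.40 and AT4G21870 at -0.68. With the slide as a block AT5G47600 had -0.55 (adjusted p = 0.595), and the sign turned for AT4G21870 (0.51), Hsp81.4 (-0.39) and Hsp89.1 (-0.44). With normexp on the median signals in place of the processed signal, chosen after seeing the data, 5 of 42 were called, against 3.26% of all tested genes. The slide block compares the 35S:YFP-AFL1 arrays with WT stress replicate 1, the wild-type array on slide 5. In it HSP21 (2.40, adjusted p = 0.0098) and APX2 (1.33, adjusted p = 0.0303) were called, 28 of 42 were positive and the median was 0.13. Root markers were lower in 35S:YFP-AFL1 at low water potential, with 3 of 5 called lower (CASP1 at -1.46, AT5G44020 at -1.23 and BGLU21 at -0.82) and summed signals of 18.25 to 29.07, against 26.77 to 47.97 in wild type. On control plates these sums were 70.08 to 84.82 in 35S:YFP-AFL1 and 88.57 to 114.1 in wild type. The part of this in the differences above was not tested.

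The difference of the stress responses, 35S:YFP-AFL1 minus wild type, was called in 0 of 42 genes and in 0% of all tested genes. An unadjusted p under 0.05 was reached by 7 of 42, where 9.73% of all tested genes reached it, and 6 of the 7 were small heat shock proteins. Among these 6, HSP21 was above background on 0 of 7 control arrays and HSP17.6A and HSP17.6II on 0 of 3 in 35S:YFP-AFL1, so that their differences subtract unmeasured control levels. HSP17.6A responded by 1.79 more (95% interval 0.91 to 2.66, adjusted p = 0.2). HSP17.4 responded by 1.21 more (95% interval 0.32 to 2.11, adjusted p = 0.364), and AT5G47600 by -1.16 (95% interval -2.03 to -0.29, adjusted p = 0.374). Intervals of this width do not show that the genotypes respond alike. Without WT stress replicate 1, HSP17.6A (1.89, adjusted p = 0.0272) and AT4G21870 (-1.06, adjusted p = 0.0152) were called. These were 2 of 42, against 4.12% of all tested genes, and with the slide as a block AT4G21870 had 0.30 (adjusted p = 0.801). The genes called in the fit with that block, where 0.109% of all tested genes were, are HSP21 (2.61, adjusted p = 0.0427) and Hsp70b (2.75, adjusted p = 0.0415). For the wild type, the difference of responses in that block rests on replicate 1 of each treatment alone. That replicate had the lowest wild-type stress value for HSP21 (-0.48). For Hsp70b it had the highest wild-type value in each treatment (0.26 under stress and -1.44 on control plates). HSP21 was above background on 0 of 7 control arrays, so that its value subtracts control levels not measured in either genotype. For Hsp70b 1 of 3 35S:YFP-AFL1 and 3 of 4 wild-type control arrays were above background.

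Replicates of a group varied together more among the other chaperones than among the small heat shock proteins. After the group means were taken out, the median pairwise correlation over the 14 arrays was 0.54 among the 24 genes that are not small heat shock proteins and 0.053 among the 18 small heat shock proteins, as a description of arrays that share slides and scan days. Several of the small heat shock protein genes were below background on some control arrays. ATHSP22.0, HSP21, AT1G52560 and AT5G37670 were so on all of them. The part of such unmeasured levels in the lower correlation was not tested. The array medians over the 42 genes were 2.15, 1.53 and 1.66 in stressed 35S:YFP-AFL1 and 1.85, 1.61, 1.60 and 1.32 in stressed wild type. On control plates they were 0.23, 0.093 and 0.14 in 35S:YFP-AFL1 and 0.32, 0.033, -0.22 and -0.10 in wild type. Replicate 1 had the highest median in each of the 4 groups.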

How the data were processed

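Total RNA of whole seedlings was copied into dye-labelled cDNA and hybridised to 1-colour Agilent arrays, per the labels' protocols. The deposited scanner files hold spot intensities, and the processed signal is the intensity after background subtraction and detrending by Agilent Feature Extraction 10.7.1.1, per the submitters' processing notes and the file headers. The authors' deposited table of all samples equalled that intensity within 6e-04, with column medians from 137.8 to 288.5, so that its scale was linear and no centring was present.

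From these values log2 of the processed signal minus the 75th percentile of the 43803 non-control spots of each array was computed in R 4.3.3. Spots of a probe were averaged to 43603 probes, 34358 of which matched a gene of the RefSeq table (TAIR10.1). A probe was kept where 3 or more arrays of a group had it well above background, and the brightest kept probe stood for its gene. A single limma 3.58.1 fit of 4 group means on 14 arrays (10 residual degrees of freedom) gave 5 comparisons, with Benjamini-Hochberg adjustment over 18307 genes and a threshold of 0.05. The scripts were tested on simulated data. The number of arrays limits the precision.

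The 43 loci, the gene lists and the tests were chosen with earlier results of these data known. Classes and compartments come from textbook knowledge of the families. Array values are printed for the highest and lowest wild-type response of each class, for genes called lower, for genes with a bound, and for the 3 lowest p-values of each genotype comparison. The alternatives were other scales, background correction, filters, probe means, slide and scan day as blocks, the replicate block, and each array left out. The array design labels a build other than TAIR10.1, so no coordinates are given, and sequences were not used here.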

Additional observations from a re-analysis of the deposited data

Results flagged for a closer look

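Single arrays standing apart from the other 3 of a wild-type group were sought by the ratio of the gap to the range (Dixon's test). The search covered 84 sets of 4 values, which are the 42 genes in each wild-type group, and 7 were found. Chance gives about 1 in 20 for a single set. The sets share the same arrays and are not independent, so that the count of 7 cannot be judged against that rate. Of the 7, 5 were replicate 1 arrays, on slides 4 and 5 with the 35S:YFP-AFL1 arrays. At low water potential WT replicate 1 was high for HSP70 at 6.13, for HSP81-2 at 4.04 and for HSP101 at 0.84, where the next highest array had 5.19 for HSP70, 3.30 for HSP81-2 and 0.12 for HSP101. On control plates WT replicate 1 was high for AT1G07400 at -2.16 and for AT5G51440 at -1.65, where the next highest array had -2.67 for AT1G07400 and -2.61 for AT5G51440. WT stress replicate 4 was low for Hop2 at 0.23, with the next lowest array at 0.47, and WT stress replicate 2 was high for AT2G20560 at 2.65, with the next highest at 2.34.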

How the results depend on the processing

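Over the alternatives, between 27 and 37 of the 42 genes were called in 35S:YFP-AFL1 and between 24 and 34 in wild type. The 37 came with only the groups compared, where 13120 of all 18307 tested genes were called. The 34 came without WT stress replicate 1, where 12072 of all tested genes were called. Of the stress values of single named genes, 582 of 594 in 35S:YFP-AFL1 and 597 of 616 in wild type kept their direction and their side of the threshold. Part of this agreement was fixed in advance, because several alternatives cannot change the fold change. The deposited table holds the same signal, and leaving out an array of the other genotype leaves the fold change as it was. So do the filters for a gene with 1 probe, and scan day 2 for 35S:YFP-AFL1, all of whose arrays it held. The sign turned for HSC70-1 in 35S:YFP-AFL1 with quantile normalization (0.013), and for AT5G51440 in wild type with scan day as a block (-0.29), within scan day 2 (-0.63), and without WT control replicate 2 (-0.027), 3 (-0.026) or 4 (-0.071) or WT stress replicate 1 (-0.18), the highest value with 1 array left out being 0.29 without WT control replicate 1. The cause was not tested.

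The median over the 42 genes in 35S:YFP-AFL1 was 2.10 with the slide as a fixed block and 1.80 as a random block, and ran from 1.32 to 1.68 with 1 array left out. In the fixed block the 35S:YFP-AFL1 treatments are linked only through single wild-type arrays. In wild type the median over the 42 genes was 1.40 with scan day as a block, 1.88 within scan day 1 and 0.995 within scan day 2, and ran from 1.45 to 1.84 with 1 array left out. Over all genes, the slide block called 6565 in 35S:YFP-AFL1, against 11592 without it, and scan day 2 alone called 7683 in wild type, against 11737. With the median of the array as the scale, the median of all genes moved to 0.17 in 35S:YFP-AFL1 and 0.13 in wild type, and the split of higher and lower calls was 6993 and 5035 in 35S:YFP-AFL1, beside 5502 and 6090, and 6786 and 5135 in wild type, beside 5627 and 6110.

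Between genotypes at low water potential, of the 42 genes 1 was called with quantile normalization (HSP21), 5 with normexp on the median signals (chosen after seeing the data), 1 with the stricter filter (AT5G47600), 2 with the slide block, and 0 to 13 with 1 array left out, 2 of them without WT control replicate 1 or WT stress replicate 4 and 13 without WT stress replicate 1. Of all genes, 397 were called, but 596 with normexp, 237 with no filter, 1 with only the groups compared, 62 with the slide as a fixed and 47 as a random block, 252 with scan day as a block, 1 within scan day 2 and 12 to 3523 with 1 array left out. On control plates 1 of the 42 was called with the slide block or within scan day 2 (Hsp70b), and 0 to 1 with 1 array left out (AT5G48570 without WT control replicate 1). Of all genes 4 were called there, but 7 with quantile normalization, 34 with the slide as a fixed and 1 as a random block, 1 with scan day as a block, 18 within scan day 2 and 2 to 536 with 1 array left out. For the difference of responses 2 of the 42 were called with the slide block (HSP21 and Hsp70b) and 0 to 2 with 1 array left out, and of all genes 20 with the slide block, 11 within scan day 2 and 0 to 754 with 1 array left out.

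The labels give same-numbered arrays nothing else in common, and the correlation of their deviations ran from -0.117 to 0.397. Replicate 1 of both genotypes shared slide 4 on control plates (correlation 0.250) and slide 5 at low water potential (0.020), and WT replicate 1 of both treatments had 0.397. With the replicate block 35 of the 42 genes were called in 35S:YFP-AFL1, where 11494 of all 18307 tested genes were. In wild type 33 of the 42 were called, where 11590 of all genes were. Of the 42 genes 0 were called between genotypes and 0 for the difference. Of all genes 199 were called between genotypes at low water potential and 2 on control plates. The planned normexp on mean signals and the promoter motif search were not run. Genes below background have only bounds.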
